A study of Mus musculus with 12 samples.

Results

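Interferon-induced genes were followed in regulatory T cells (Treg) of the mouse spleen, and 38 of them formed the set described here. They were the probe sets of an Affymetrix mouse gene array annotated to 38 named genes, among 22180 genes with a probe set of exactly 1 symbol, and for each gene the brightest probe set by its mean on the 12 arrays was read. Values are log2 expression per probe set, so a difference of 1 is a 2-fold change. The set comprised antiviral effectors, sensors of viral RNA, interferon regulatory factors, enzymes of ISG15 conjugation, PARP proteins and immunity-related GTPases.

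The study compared Treg sorted by flow cytometry from DEREG mice, a strain in which Foxp3-expressing cells make a diphtheria toxin receptor joined to green fluorescent protein and can be removed with diphtheria toxin (DTx). All mice had been sensitised and challenged with ovalbumin (OVA), a model of allergic airways disease. Treg called eTreg (endogenous) were taken from mice treated with a control protein, human serum albumin (HSA), at 2 g/kg, without DTx. Treg called e_iTreg came from mice given intravenous immunoglobulin (IVIg), pooled human IgG, at 2 g/kg without DTx, and are labelled as a mixture of endogenous and induced cells. Treg called iTreg (induced) came from mice in which DTx at 40 ng/g had depleted the endogenous Treg before IVIg at 2 g/kg. Each group had 4 biological replicates, 1 array each, from 2 ng of RNA, and age and sex of the mice are not stated in the labels. Grouping here follows the series design, whereas the growth protocol is worded alike for all samples and places DTx before either protein. A group that received DTx with HSA was not analysed here, so IVIg and DTx change together between iTreg and eTreg, and how many endogenous Treg were left after depletion is not stated.

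Interferons are cytokines that alert cells to viruses and other microbes. Type I interferons bind the receptor made of Ifnar1 and Ifnar2 and activate Jak1 and Tyk2, and a complex that holds Stat2 and Irf9 then binds an interferon-stimulated response element (ISRE) in target promoters. Interferon gamma acts through Ifngr1 and Ifngr2, and its target promoters hold gamma-activated sites (GAS). Most of the genes in the set respond to type I interferons, and Irgm1, Irgm2, Igtp and Irf1 respond strongly to interferon gamma.

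The sorted samples carried the Treg label in their RNA, with Foxp3 between 11.84 and 12.56 on all 12 arrays, and Foxp3 in iTreg differed from eTreg by -0.29 ± 0.13 (SE, adjusted p = 0.218). Of 13 measured Treg markers 3 were lower in iTreg than in eTreg and none higher at the threshold used throughout, an adjusted p of 0.05 in limma over all 23521 probe sets with 1 symbol. These 3 were Ikzf4 (-1.04 ± 0.14), Lrrc32 (-0.80 ± 0.18) and Izumo1r (-0.46 ± 0.11). A single array, iTreg replicate 4, stood apart in plasma cell and myeloid markers, and 3 arrays (eTreg replicates 3 and 4 and e_iTreg replicate 4) were low in B cell markers. Xist was at 5.82 in e_iTreg replicate 4 against 10.26 to 11.37 elsewhere, and the Y-linked Eif2s3y was at 4.33 in eTreg replicate 3 and 4.47 in iTreg replicate 4 against 7.12 to 9.72 elsewhere.

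Of the 38 genes 7 were higher in iTreg than in eTreg and 0 lower, where 5.36% of all probe sets tested were higher and 4.63% lower (9.99% together). Against e_iTreg 13 were higher in iTreg and 0 lower, where 6.49% of all probe sets were higher and 4.75% lower (11.2% together). Between e_iTreg and eTreg 0 genes of the set differed at the threshold in limma, where 0% of all probe sets did. The iTreg rises were led by Cmpk2, a mitochondrial nucleotide kinase, and Oas3, which makes the 2-5A messenger that activates RNase L, and these were the 2 genes that changed 2-fold or more in either comparison. The median difference of the set was 0.21 in iTreg minus eTreg (all probe sets, -0.01), 0.31 in iTreg minus e_iTreg (all, -0.07) and -0.13 in e_iTreg minus eTreg (all, 0.03). The median SE of a difference over the set was 0.13, with n = 4 arrays per group. At an unadjusted p of 0.05 the counts were 14 higher and 2 lower against eTreg, where 10.3% and 11.4% of all probe sets were (21.7% together). Against e_iTreg they were 22 higher and 1 lower, where 11.5% and 14.9% were (26.3% together). Because iTreg is in both comparisons in which genes rose, the counts of 7 and 13 are not separate observations of the iTreg arrays.

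**Figure D1:**
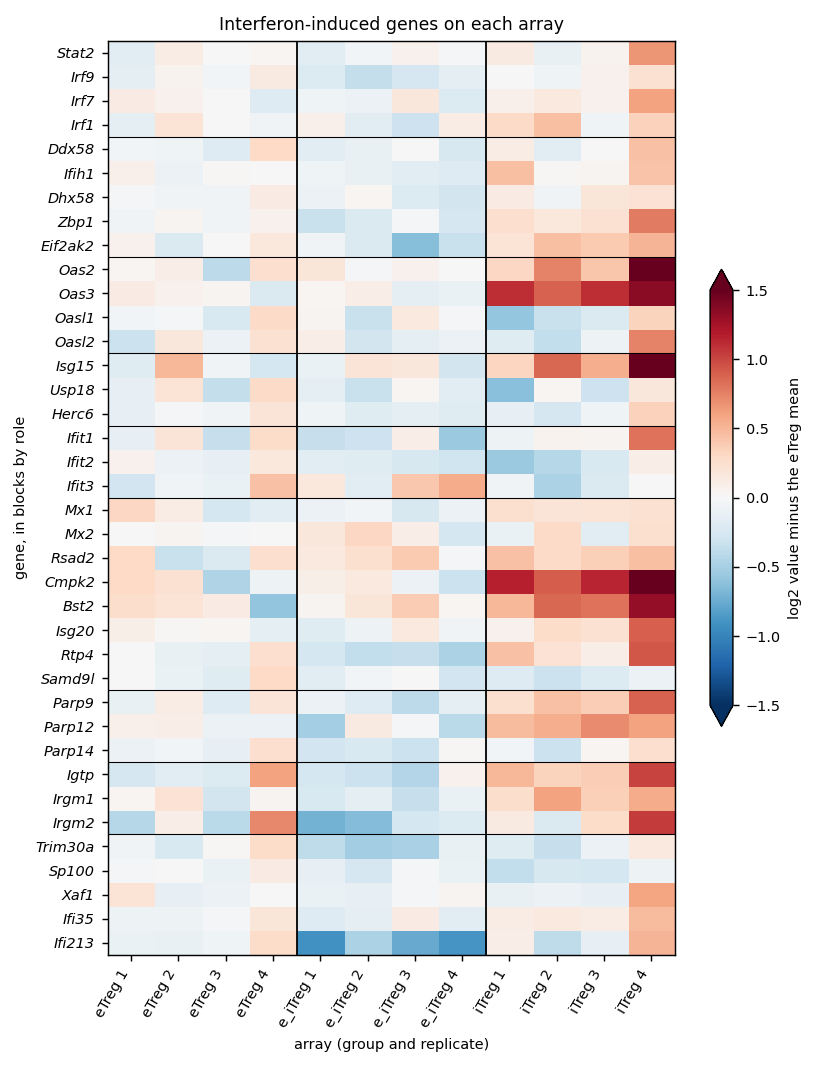
Log2 value of each of the 38 interferon-induced genes (vertical axis, in blocks by role) on each of the 12 arrays (horizontal axis) minus the gene's mean over the 4 eTreg arrays, on a colour scale that ends at 1.5 in either direction. Oas3 and Cmpk2 are high on all 4 iTreg arrays, while iTreg replicate 4 is the highest array for 25 of the 38 genes.

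**Figure D2:**
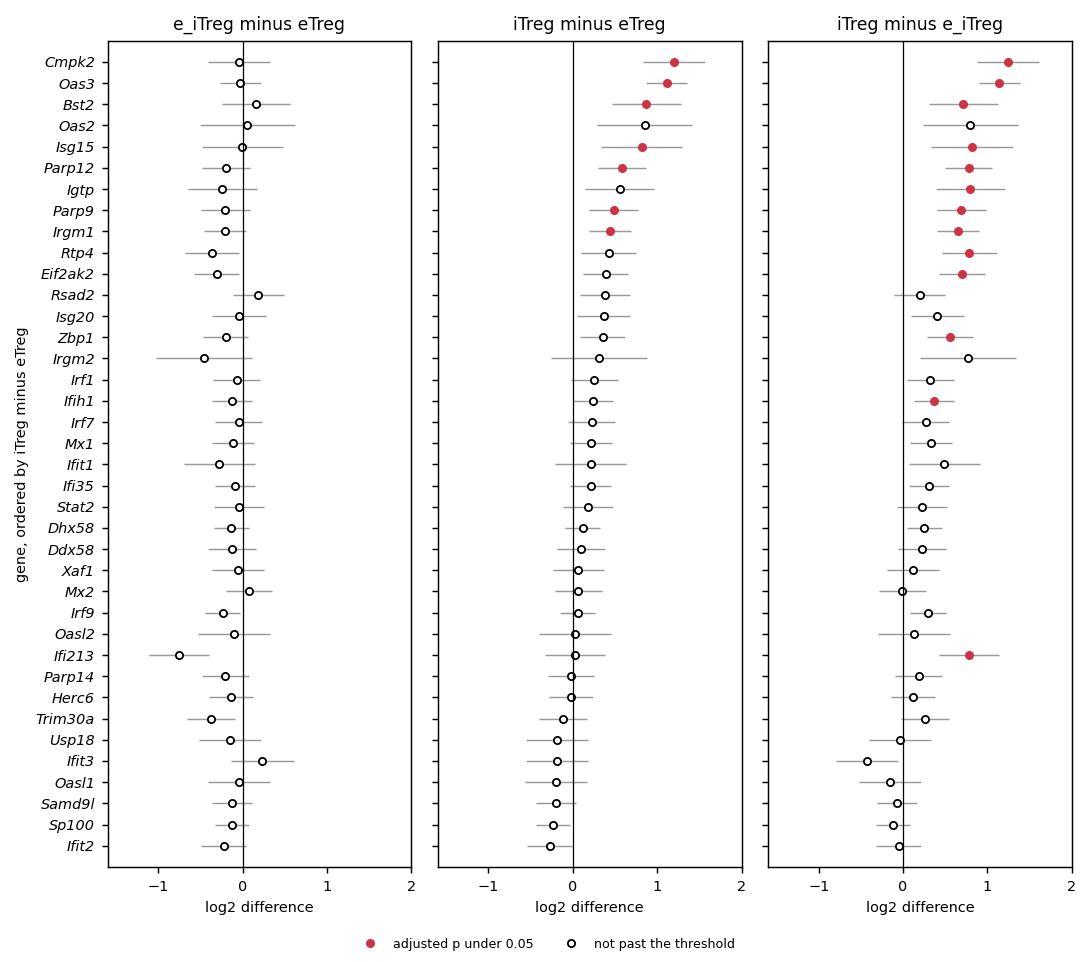
Log2 difference of each gene (horizontal axis) with its 95% interval in 3 comparisons, with genes ordered by iTreg minus eTreg; filled points are past an adjusted p of 0.05 in limma. Of the 38 genes, 0 are filled in the comparison of e_iTreg with eTreg, 7 in that of iTreg with eTreg and 13 in that of iTreg with e_iTreg.

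Promoters are shown for 10 genes that differ in their response, to set the letters beside the measurements. The RefSeq promoter table (GRCm38.p6) held 29 of the 38 genes, each with 250 bases before and 50 after the start. A core of the ISRE, GAAA and GAAA separated by any 2 bases, searched on both strands, was present in 15 of these 29 genes (51.7%). It was present in 3.99% of all 27025 genes in the table and in 3.44% of its 32851 promoters. Among the genes past the threshold in iTreg minus e_iTreg the core was present in 8 of 10 windows (80%), and among the other genes in 7 of 19 (36.8%). The GAS letters TTCNNNGAA were present in 8 of 29 (27.6%), against 9.55% of all genes and 8.3% of all promoters. The 2 searches were allowed to overlap, and a match describes letters and not a bound site. The 150 bases before each start follow, from RefSeq (GRCm38.p6), read 5′ to 3′ on the gene's strand, with matches to either motif in capitals.
Oas3, chr5:120777660-120777809, minus strand: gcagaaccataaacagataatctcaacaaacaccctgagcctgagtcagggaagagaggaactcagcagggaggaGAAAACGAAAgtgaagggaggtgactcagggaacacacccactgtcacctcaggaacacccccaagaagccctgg
Isg15, chr4:156200819-156200968, minus strand: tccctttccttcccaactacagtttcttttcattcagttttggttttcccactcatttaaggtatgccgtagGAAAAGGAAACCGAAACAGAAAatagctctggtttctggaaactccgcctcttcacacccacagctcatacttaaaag
Bst2, chr8:71537473-71537622, minus strand: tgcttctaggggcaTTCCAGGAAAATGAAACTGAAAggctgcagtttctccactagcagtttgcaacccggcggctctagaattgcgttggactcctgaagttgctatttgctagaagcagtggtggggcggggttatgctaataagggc
Irgm1, chr11:48871421-48871570, minus strand: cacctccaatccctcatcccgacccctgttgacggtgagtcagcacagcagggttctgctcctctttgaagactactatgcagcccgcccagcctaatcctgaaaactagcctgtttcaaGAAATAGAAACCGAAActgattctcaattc
Igtp, chr11:58199406-58199555, plus strand: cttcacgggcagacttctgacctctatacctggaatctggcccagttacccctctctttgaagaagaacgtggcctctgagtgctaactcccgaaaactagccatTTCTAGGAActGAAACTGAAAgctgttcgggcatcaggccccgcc
Irgm2, chr11:58214827-58214976, plus strand: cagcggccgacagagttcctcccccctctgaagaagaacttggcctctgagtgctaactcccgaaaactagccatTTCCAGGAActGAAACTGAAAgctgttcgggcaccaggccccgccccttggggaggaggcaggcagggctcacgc
Ifi213, chr1:173599273-173599422, minus strand: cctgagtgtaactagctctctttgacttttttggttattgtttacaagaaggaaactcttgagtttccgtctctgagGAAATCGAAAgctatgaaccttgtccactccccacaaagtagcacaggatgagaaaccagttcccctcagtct
Ifit1, chr19:34640739-34640888, plus strand: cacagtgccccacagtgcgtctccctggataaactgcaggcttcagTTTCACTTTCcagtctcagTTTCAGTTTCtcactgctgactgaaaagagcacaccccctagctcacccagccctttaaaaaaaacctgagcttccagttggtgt
Rsad2, chr12:26456453-26456602, minus strand: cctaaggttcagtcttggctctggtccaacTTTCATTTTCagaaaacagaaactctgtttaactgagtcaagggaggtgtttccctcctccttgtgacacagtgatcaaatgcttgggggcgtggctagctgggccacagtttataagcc
Cmpk2, chr12:26469065-26469214, plus strand: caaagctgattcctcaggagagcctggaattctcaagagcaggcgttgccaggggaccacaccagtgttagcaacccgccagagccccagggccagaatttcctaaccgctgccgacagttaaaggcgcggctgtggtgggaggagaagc

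In Isg15 3 cores overlap in 1 run of capitals, in Irgm1 and Bst2 2 cores overlap, and in Bst2 the run begins with a GAS match. Igtp and Irgm2, neighbours on the same chromosome, share a GAS match followed by an ISRE core, and Irgm1 lacks the GAS letters in this window. Oas3 holds 1 core, at bases -75 to -66 from its start. Cmpk2, which rose most, has neither motif in its window, while its neighbour Rsad2, on the opposite strand, has a core at -120 to -111. Ifit1, which did not pass the threshold, holds 2 cores, so genes past the threshold and genes not past it both held these letters.

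The 2-5A synthetase family divided by member. These enzymes sense double-stranded RNA, and the OAS-like proteins Oasl1 and Oasl2 are relatives of the synthetases. Oas3 stood at 7.71, 7.64, 7.62 and 7.37 in the 4 eTreg arrays, at 7.61, 7.69, 7.43 and 7.49 in e_iTreg and at 8.69, 8.47, 8.69 and 8.94 in iTreg. All 4 iTreg arrays lay above all 8 others, and e_iTreg overlapped eTreg. Oas3 rose by 1.11 ± 0.11 against eTreg (2.16-fold, adjusted p = 0.000225) and by 1.14 ± 0.11 against e_iTreg (2.21-fold, adjusted p = 0.00016). Without iTreg replicate 4 these differences were 1.03 and 1.06, and both stayed past the threshold.

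Oas2 was at 7.83, 7.90, 7.40 and 8.05 in eTreg, at 7.97, 7.78, 7.86 and 7.80 in e_iTreg and at 8.11, 8.55, 8.21 and 9.72 in iTreg. The iTreg arrays lay above all others, and replicate 4 led the next array by 1.17, the widest such lead of that array for any gene of the set. The difference of 0.85 ± 0.26 from eTreg missed the threshold (adjusted p = 0.0558), as did 0.80 ± 0.26 from e_iTreg (adjusted p = 0.0674), and without that array they were 0.49 and 0.44. Oasl1 lay at 7.25, 7.27, 7.06 and 7.58 in eTreg, at 7.32, 6.95, 7.43 and 7.26 in e_iTreg and at 6.71, 6.95, 7.07 and 7.62 in iTreg, with overlapping groups and a difference from eTreg of -0.20 ± 0.17 (adjusted p = 0.592). Oasl2 differed from eTreg by 0.03 ± 0.20 (adjusted p = 0.964), with a 95% interval from -0.40 to 0.45. Without iTreg replicate 4 the differences were -0.38 for Oasl1 and -0.21 for Oasl2, neither past the threshold.

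Among 8 further antiviral effectors 2 were higher in iTreg than in eTreg and 3 higher than in e_iTreg. Cmpk2 was at 8.37, 8.29, 7.61 and 7.99 in eTreg, at 8.15, 8.21, 7.98 and 7.74 in e_iTreg and at 9.23, 8.97, 9.20 and 9.65 in iTreg. Its iTreg arrays lay above all others. It rose by 1.20 ± 0.17 against eTreg (2.30-fold, adjusted p = 0.00119) and by 1.24 ± 0.17 against e_iTreg (2.37-fold, adjusted p = 0.00099).

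Bst2 (tetherin), a membrane protein that holds budding virus particles on the cell surface, stood at 10.25, 10.18, 10.11 and 9.39 in eTreg, at 10.02, 10.16, 10.37 and 10.01 in e_iTreg and at 10.48, 10.84, 10.80 and 11.30 in iTreg. The iTreg arrays lay above the rest, and eTreg replicate 4 was low. Bst2 rose by 0.87 ± 0.19 against eTreg (adjusted p = 0.00891) and by 0.71 ± 0.19 against e_iTreg (adjusted p = 0.0255). The call against e_iTreg was lost without e_iTreg replicate 1 or 4 or iTreg replicate 3 or 4, with adjusted p up to 0.0720 and differences of 0.57 to 0.73. The call against eTreg was lost without the 3 arrays low in B cell markers (0.64, adjusted p = 0.11). It was kept in 11 of 14 other settings, with differences down to 0.56 and adjusted p up to 0.139. The call against e_iTreg was kept in 10 of the 14, with differences down to 0.44 and adjusted p up to 0.177. Bst2 is also a marker of plasmacytoid dendritic cells. Their defining marker Siglech was dim, at 6.04, 5.82, 6.05 and 6.06 in iTreg. It was lower there than in e_iTreg (-0.45 ± 0.12, adjusted p = 0.0298) and differed from eTreg by -0.18 ± 0.12 (adjusted p = 0.47). Of 11 measured markers of these cells, Bst2 among them, 5 had positive differences from eTreg and 3 from e_iTreg. The part of these cells in the Bst2 values was not tested.

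Rtp4, a transmembrane chaperone with antiviral activity, stood at 9.17, 9.05, 9.02 and 9.41 in eTreg, at 8.90, 8.79, 8.82 and 8.69 in e_iTreg and at 9.60, 9.38, 9.27 and 10.09 in iTreg. Every e_iTreg array lay below every array of the other 2 groups, while iTreg and eTreg overlapped. Rtp4 rose by 0.79 ± 0.15 against e_iTreg (adjusted p = 0.00464), and it differed from eTreg by 0.42 ± 0.15 (adjusted p = 0.102), or by 0.26 without iTreg replicate 4. The call was lost with covariates for Xist and Y-linked genes (adjusted p = 0.053).

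The remaining effectors did not pass the threshold in any comparison. Rsad2 (viperin), which makes a chain-terminating nucleotide that blocks viral RNA synthesis, was at 7.18, 6.55, 6.67 and 7.13 in eTreg, at 7.03, 7.12, 7.27 and 6.85 in e_iTreg and at 7.32, 7.17, 7.24 and 7.33 in iTreg. It differed from eTreg by 0.38 ± 0.14 (adjusted p = 0.113), against 1.20 for Cmpk2 beside it on the chromosome, although the difference between these 2 responses was not tested. The dynamin-like GTPase Mx2 was at 6.38, 6.42, 6.36 and 6.38 in eTreg, at 6.55, 6.69, 6.48 and 6.12 in e_iTreg and at 6.29, 6.67, 6.23 and 6.62 in iTreg, with overlapping groups. Mx1, another such GTPase, was the 1 gene of the set with a mean at or below log2 6, and its difference from eTreg was 0.22 ± 0.12 (adjusted p = 0.309). Isg20, an exonuclease for RNA, differed from eTreg by 0.37 ± 0.15 (adjusted p = 0.156), and by 0.19 without iTreg replicate 4. Samd9l, a restriction factor of poxviruses, stood at 8.53, 8.44, 8.36 and 8.84 in eTreg, at 8.37, 8.51, 8.53 and 8.25 in e_iTreg and at 8.35, 8.22, 8.33 and 8.46 in iTreg. Its groups overlapped, and its difference from eTreg was -0.20 ± 0.11 (adjusted p = 0.342).

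Isg15, a ubiquitin-like protein that is joined to other proteins after interferon exposure, was measured with the ligase Herc6 and the deconjugase Usp18. It lay at 7.72, 8.40, 7.85 and 7.64 in eTreg, at 7.80, 8.09, 8.07 and 7.63 in e_iTreg and at 8.23, 8.76, 8.45 and 9.44 in iTreg. The iTreg arrays were above all e_iTreg arrays, but eTreg replicate 2 lay above iTreg replicate 1. Isg15 rose by 0.82 ± 0.23 against eTreg (adjusted p = 0.0328) and by 0.82 ± 0.23 against e_iTreg (adjusted p = 0.0303). Both calls lay near the threshold and depended on which array was left out. Against eTreg the call was lost without eTreg replicate 1, 3 or 4 or iTreg replicate 2 or 4 (differences of 0.58 to 0.80, adjusted p up to 0.0950), and against e_iTreg without e_iTreg replicate 1, 3 or 4 or iTreg replicate 2 or 4 (0.58 to 0.88, adjusted p up to 0.0889). The enzymes did not follow at the threshold, with Usp18 at -0.19 ± 0.17 (adjusted p = 0.631) and Herc6 at -0.02 ± 0.12 (adjusted p = 0.953) against eTreg, or at -0.30 and -0.15 without iTreg replicate 4, again not past it.

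IFIT proteins, which bind viral RNA and block its translation, had 0 of 3 genes past the threshold in any comparison. Ifit2 was at 7.55, 7.39, 7.36 and 7.64 in eTreg, at 7.32, 7.30, 7.24 and 7.18 in e_iTreg and at 6.93, 7.06, 7.26 and 7.58 in iTreg. All e_iTreg arrays lay below all eTreg arrays, and 3 of the 4 iTreg arrays did too. Ifit2 in iTreg differed from eTreg by -0.28 ± 0.13 (adjusted p = 0.215), and without iTreg replicate 4 it was lower by the test (-0.40, adjusted p = 0.0383). Ifit3 stood at 7.26, 7.49, 7.44 and 7.98 in eTreg, at 7.70, 7.37, 7.95 and 8.10 in e_iTreg and at 7.49, 7.07, 7.33 and 7.54 in iTreg. The groups overlapped, and the difference between iTreg and e_iTreg was -0.42 ± 0.17 (adjusted p = 0.134), which passed without e_iTreg replicate 2 (-0.56, adjusted p = 0.0444). Ifit1 differed from eTreg by 0.21 ± 0.20 (adjusted p = 0.633) and from e_iTreg by 0.49 ± 0.20 (adjusted p = 0.131). Without iTreg replicate 4 these differences of Ifit1 were 0.0085 and 0.29.

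Of 3 PARP proteins, ADP-ribosyltransferases and their relatives induced by interferon, 2 rose in both comparisons. Parp12 was at 8.22, 8.24, 8.04 and 8.04 in eTreg, at 7.63, 8.28, 8.12 and 7.74 in e_iTreg and at 8.61, 8.68, 8.84 and 8.74 in iTreg. The iTreg arrays lay above all others and within 0.24 of each other, and replicate 4 was not the highest. Parp12 rose by 0.58 ± 0.13 against eTreg (adjusted p = 0.0114) and by 0.78 ± 0.13 against e_iTreg (adjusted p = 0.00247). Its call against eTreg was lost in 3 of 14 other settings, without the 3 arrays low in B cell markers (0.49, adjusted p = 0.163) and with either the plasma cell or the monocyte, macrophage and dendritic cell marker mean as a covariate. Parp9, a partner of the ubiquitin ligase Dtx3l, was at 7.31, 7.54, 7.24 and 7.61 in eTreg, at 7.34, 7.23, 7.03 and 7.28 in e_iTreg and at 7.67, 7.86, 7.79 and 8.31 in iTreg. Its iTreg arrays also lay above all others, although the lowest of them was close to the highest eTreg array. Parp9 rose by 0.48 ± 0.14 against eTreg (adjusted p = 0.036) and by 0.69 ± 0.14 against e_iTreg (adjusted p = 0.00519). Its call against eTreg was lost without eTreg replicate 1, 2 or 3 or iTreg replicate 2 or 4 (0.35 to 0.52, adjusted p up to 0.115). Parp14 differed from eTreg by -0.02 ± 0.13 (adjusted p = 0.962), or by -0.11 without iTreg replicate 4.

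Immunity-related GTPases act on the membranes around intracellular microbes, and the 3 in the set differed between iTreg and e_iTreg by 0.65 to 0.80, 2 of them past the threshold. Irgm1, a regulator of the other GTPases, stood at 7.85, 8.03, 7.54 and 7.86 in eTreg, at 7.59, 7.67, 7.47 and 7.72 in e_iTreg and at 8.09, 8.42, 8.17 and 8.37 in iTreg. Again no iTreg array overlapped the other groups. Irgm1 rose by 0.44 ± 0.12 against eTreg (adjusted p = 0.0257) and by 0.65 ± 0.12 against e_iTreg (adjusted p = 0.00325), and the first call was lost without eTreg replicate 3 or 4 or iTreg replicate 2 or 4 (0.35 to 0.46, adjusted p up to 0.0898).

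Igtp (Irgm3) was at 10.28, 10.37, 10.33 and 11.13 in eTreg, at 10.26, 10.20, 10.09 and 10.59 in e_iTreg and at 11.03, 10.86, 10.89 and 11.54 in iTreg. Apart from eTreg replicate 4, which lay among the iTreg arrays, the iTreg arrays were the highest. Igtp rose by 0.80 ± 0.19 against e_iTreg (adjusted p = 0.0157) and differed from eTreg by 0.55 ± 0.19 (adjusted p = 0.0901), and the call against e_iTreg was lost without e_iTreg replicate 3 (0.73, adjusted p = 0.0546) and with each of the 3 covariates tried (adjusted p up to 0.101). These covariates were the plasma cell marker mean, the monocyte, macrophage and dendritic cell marker mean, and Xist with Y-linked genes. Irgm2 was at 8.35, 8.87, 8.37 and 9.50 in eTreg, at 8.07, 8.12, 8.50 and 8.57 in e_iTreg and at 8.91, 8.55, 9.05 and 9.82 in iTreg. The same eTreg replicate 4 was high for Irgm2, the groups overlapped, and 0.77 ± 0.27 against e_iTreg did not pass (adjusted p = 0.0796). Against eTreg Irgm2 differed by 0.31 ± 0.27, and by 0.065 without iTreg replicate 4.

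Of 5 genes for sensors of viral nucleic acid, the RNA-activated kinase among them, 0 passed against eTreg and 3 rose against e_iTreg. Eif2ak2 (PKR), the kinase that halts translation on binding double-stranded RNA, was at 7.01, 6.73, 6.94 and 7.11 in eTreg, at 6.89, 6.73, 6.31 and 6.62 in e_iTreg and at 7.15, 7.39, 7.34 and 7.46 in iTreg. Its iTreg arrays lay above all others. It rose by 0.70 ± 0.13 against e_iTreg (adjusted p = 0.00359) and differed from eTreg by 0.39 ± 0.13 (adjusted p = 0.0717).

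Zbp1, a sensor of Z-form nucleic acid that can start necroptosis, was at 10.21, 10.30, 10.21 and 10.33 in eTreg, at 9.93, 10.04, 10.25 and 10.01 in e_iTreg and at 10.52, 10.42, 10.49 and 11.04 in iTreg. Its iTreg arrays also lay above all others, with replicate 4 well above the rest. Zbp1 rose by 0.56 ± 0.13 against e_iTreg (adjusted p = 0.0118) and differed from eTreg by 0.35 ± 0.13 (adjusted p = 0.103), or by 0.21 without iTreg replicate 4. The call against e_iTreg was lost in 4 of 14 other settings, without the 3 arrays low in B cell markers (0.54, adjusted p = 0.0598) and with each of the 3 covariates tried (down to 0.35, adjusted p up to 0.0982). Ifih1 (MDA5), a sensor of long double-stranded RNA, was at 8.92, 8.76, 8.85 and 8.83 in eTreg, at 8.78, 8.73, 8.69 and 8.65 in e_iTreg and at 9.29, 8.86, 8.88 and 9.27 in iTreg. Replicates 1 and 4 of iTreg were high, and the other 2 overlapped eTreg but not e_iTreg. Ifih1 rose by 0.36 ± 0.11 against e_iTreg (adjusted p = 0.0463), a call lost without any 1 array other than iTreg replicates 2 and 3 (0.29 to 0.39, adjusted p up to 0.136). Ddx58 (RIG-I) and Dhx58 (LGP2), related RNA helicases, differed from eTreg by 0.10 ± 0.13 (adjusted p = 0.769) and 0.12 ± 0.10 (adjusted p = 0.575), and Ddx58 by -0.014 without iTreg replicate 4.

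The factors that relay or amplify interferon signals had 0 of 4 genes past the threshold in any comparison. Against eTreg, Stat2, Irf9, Irf7 and Irf1 differed by 0.06 to 0.25, and against e_iTreg by 0.23 to 0.32. Without iTreg replicate 4 the differences from eTreg were 0.025 for Stat2, 0.00042 for Irf9, 0.094 for Irf7 and 0.22 for Irf1. Those from e_iTreg were then 0.066 for Stat2, 0.24 for Irf9, 0.14 for Irf7 and 0.29 for Irf1. Irf9, the DNA-binding part of the type I complex, stood at 9.88, 10.07, 9.98 and 10.15 in eTreg, at 9.81, 9.67, 9.77 and 9.89 in e_iTreg and at 10.01, 9.96, 10.09 and 10.25 in iTreg. The e_iTreg arrays were mostly the lowest, with overlap at eTreg replicate 1.

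Other regulators in the set numbered 5, of which 0 passed against eTreg and 1 rose against e_iTreg. That gene was Ifi213, of the Ifi200 family of DNA-binding proteins, at 7.59, 7.58, 7.63 and 7.97 in eTreg, at 6.79, 7.22, 6.93 and 6.80 in e_iTreg and at 7.79, 7.31, 7.56 and 8.20 in iTreg. All e_iTreg arrays lay below all arrays of the other 2 groups, which overlapped. Ifi213 was higher in iTreg than in e_iTreg by 0.78 ± 0.17 (adjusted p = 0.008) and differed from eTreg by 0.02 ± 0.17 (adjusted p = 0.964), and the e_iTreg arrays were the low ones. The call was lost in 3 of 14 other settings, with each of the 3 covariates tried (down to 0.54, adjusted p up to 0.0825), and without iTreg replicate 4 Ifi213 differed from eTreg by -0.14.

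Trim30a, an inhibitor of inflammatory signalling, stood at 8.03, 7.85, 8.09 and 8.35 in eTreg, at 7.70, 7.56, 7.59 and 7.97 in e_iTreg and at 7.90, 7.74, 7.996 and 8.23 in iTreg. The groups overlapped, with most e_iTreg arrays the lowest. Sp100, a nuclear body protein with 4 probe sets of which the brightest was used, was at 11.75, 11.76, 11.66 and 11.89 in eTreg, at 11.64, 11.52, 11.75 and 11.67 in e_iTreg and at 11.39, 11.52, 11.50 and 11.70 in iTreg. Its groups overlapped, and it differed from eTreg by -0.24 ± 0.10 (adjusted p = 0.148). Another of its probe sets, at a mean of 6.15, passed against e_iTreg in the other direction (0.72 ± 0.19, adjusted p = 0.0231), so the probe sets of Sp100 disagree. Xaf1, a promoter of cell death, and Ifi35 differed from eTreg by 0.07 ± 0.14 and 0.21 ± 0.11, neither past the threshold, or by -0.11 and 0.12 without iTreg replicate 4. The dimmer probe set of Ifi35, at a mean of 6.81, had the other sign. It differed by -0.12 ± 0.12 from eTreg and by -0.14 ± 0.12 from e_iTreg, neither past the threshold.

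**Figure D3:**
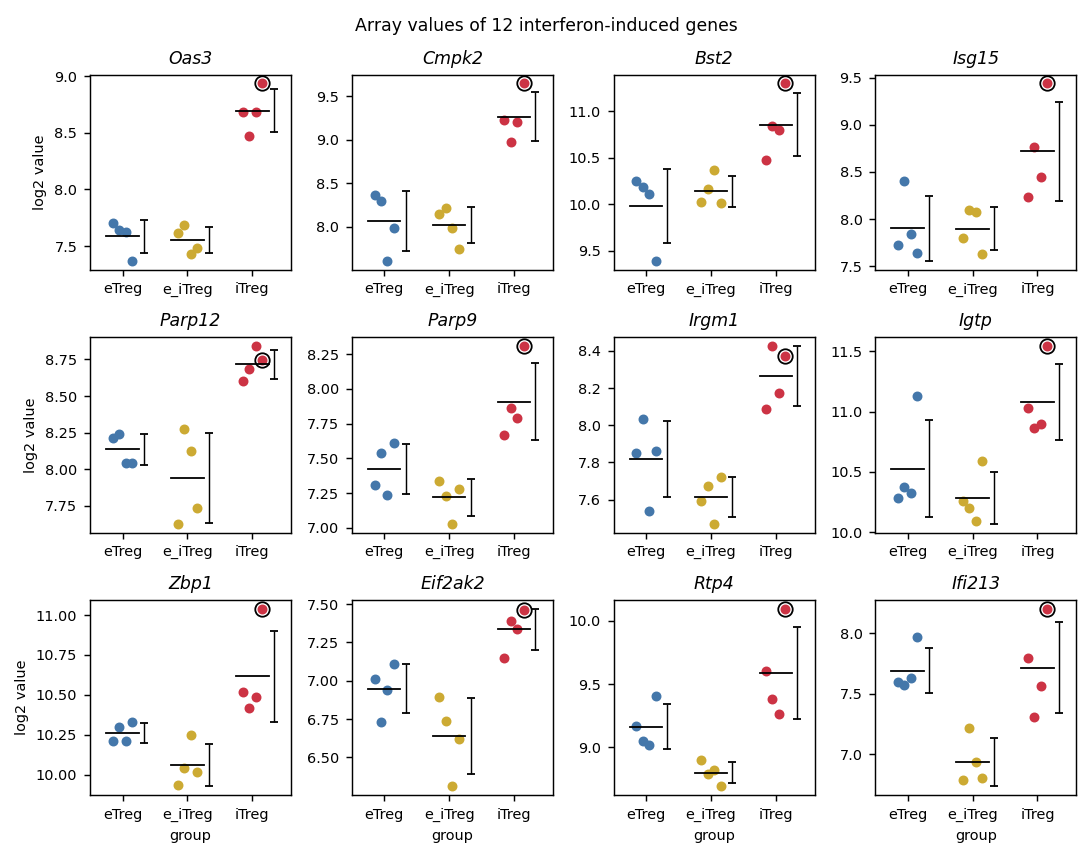
Log2 value (vertical axis) of 12 interferon-induced genes on the 4 arrays of each group (horizontal axis); lines are group means, bars beside the points are SD, and iTreg replicate 4 is ringed. For Oas3, Cmpk2, Bst2, Parp12, Parp9, Irgm1, Zbp1 and Eif2ak2 the 4 iTreg arrays lie above all 8 others, while Ifi213 is lowest on the 4 e_iTreg arrays.

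The 31 genes not past the threshold in iTreg minus eTreg ranged from -0.28 to 0.85, with 22 above 0, 9 below and a median of 0.12. The iTreg arrays lay wholly above the eTreg arrays for 9 of the 38 genes, where this held for 6.9% of all probe sets, and wholly below for 0 (7.82% of all). Against e_iTreg the same was true of 16 genes (7.57%) and of 0 (9%). The 6 genes that passed against e_iTreg alone were Eif2ak2, Igtp, Ifih1, Ifi213, Rtp4 and Zbp1. Their differences in iTreg minus eTreg were 0.02 to 0.55, and in e_iTreg minus eTreg -0.75 to -0.13. The call against e_iTreg and its absence against eTreg do not show that the 2 comparisons differ, and e_iTreg and eTreg themselves did not differ for these genes at the threshold.

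The comparison of e_iTreg with eTreg asks what IVIg changed while endogenous Treg remained. None of the 38 genes passed limma's test (smallest adjusted p = 0.704), and at an unadjusted p of 0.05 there were 0 higher and 5 lower, where 4.53% of all probe sets were higher and 2.48% lower. These 5 were Ifi213 (-0.75 ± 0.17), Trim30a (-0.38 ± 0.13), Rtp4 (-0.36 ± 0.15), Eif2ak2 (-0.31 ± 0.13) and Irf9 (-0.24 ± 0.10). The e_iTreg arrays lay wholly above the eTreg arrays for 0 genes (2.63% of all probe sets). Differences were negative for 33 of the 38 genes and positive for Ifit3 (0.24), Rsad2 (0.19), Bst2 (0.16), Mx2 (0.08) and Oas2 (0.06), while 58.9% of all probe sets were positive. The e_iTreg arrays lay wholly below the eTreg arrays for 3 genes, Ifit2, Rtp4 and Ifi213, where this held for 1.66% of all probe sets. For the genes that rose most in iTreg the interval of this difference was -0.27 to 0.21 for Oas3 and -0.41 to 0.33 for Cmpk2, both below their rises in iTreg. The sign for Bst2 turned without eTreg replicate 4 (-0.039).

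The set as a whole stood highest on 1 iTreg array. The mean of the 38 genes was 8.64, 8.64 and 8.67 on iTreg replicates 1, 2 and 3 and 9.12 on replicate 4, against 8.39 to 8.63 in eTreg and 8.35 to 8.41 in e_iTreg. Replicate 4 was the highest of the 12 arrays for 25 of the 38 genes (65.8%), where it was the highest for 7.91% of all probe sets. It was also the highest for 10 of 11 plasma cell markers (90.9%) and 14 of 18 monocyte, macrophage and dendritic cell markers (77.8%), against 1 of 12 B cell markers and 1 of 11 plasmacytoid dendritic cell markers. Jchain, the joining chain of secreted antibody, was at 11.69 there and at 6.67 to 8.18 on the other iTreg arrays, and the complement gene C1qb at 9.83 against 6.72 to 7.04. In these bulk samples more cells of a type and more RNA per cell cannot be told apart, and the part of other cells in the interferon genes was not tested.

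Without iTreg replicate 4, 4 genes rose against eTreg, namely Oas3 (1.03), Cmpk2 (1.07), Bst2 (0.72) and Parp12 (0.57), and Ifit2 was lower, where 4.63% of all probe sets were higher and 3.45% lower. The median difference of the set was 0.09, against 0.21 with all arrays. Against e_iTreg 10 genes rose, where 5.53% of all probe sets were higher and 3.27% lower. The calls of Isg15, Bst2 and Ifih1 were lost, and the median was 0.23 against 0.31. Without the 3 arrays low in B cell markers, the calls against eTreg were left to Oas3 (1.02) and Cmpk2 (0.94), where 0.897% of all probe sets were higher, and 10 genes rose against e_iTreg, where 3.75% were, with the calls of Zbp1, Isg15 and Ifih1 lost.

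**Figure D4:**
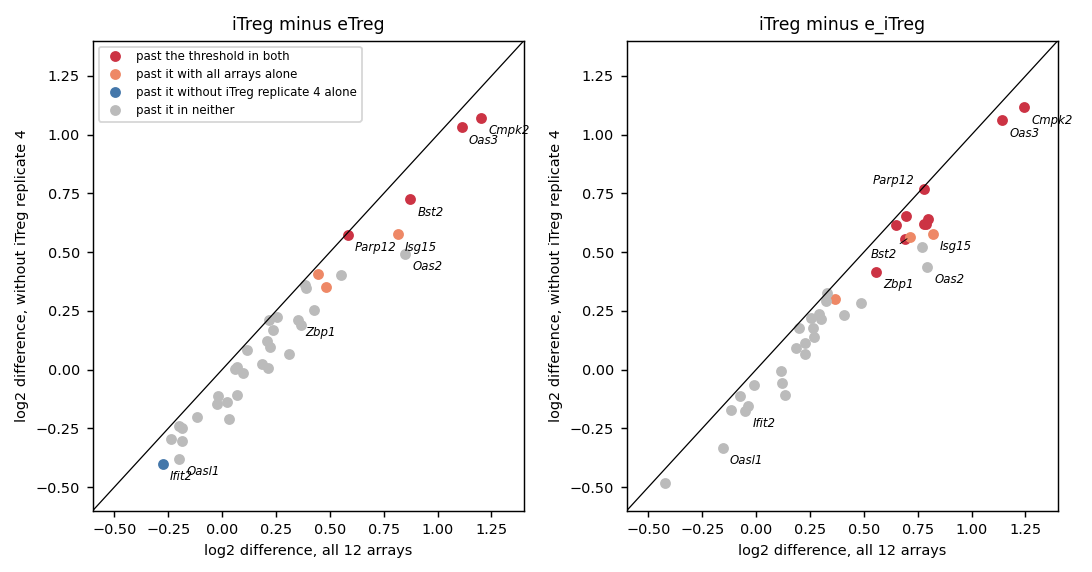
Log2 difference of each of the 38 genes with all 12 arrays (horizontal axis) and without iTreg replicate 4 (vertical axis), in the comparisons of iTreg with eTreg and with e_iTreg; the line marks equal values. All points lie below the line, Oas3 and Cmpk2 stay above 1 in both panels, and Oas2 moves from 0.85 to 0.49 against eTreg.

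**Figure D5:**
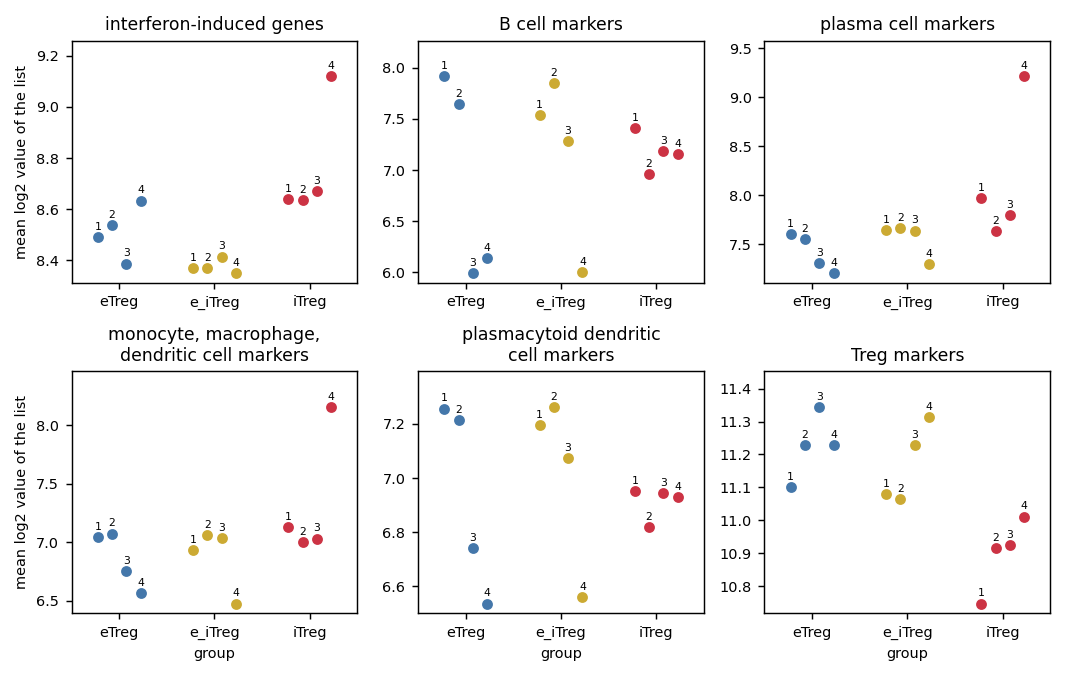
Mean log2 value of 6 gene lists (vertical axes) on each array, labelled by replicate number, by group (horizontal axis). The plasma cell and the monocyte, macrophage and dendritic cell lists are highest on iTreg replicate 4, at 9.21 and 8.15, as is the mean of the interferon-induced genes, while the B cell list is near 6 on eTreg replicates 3 and 4 and e_iTreg replicate 4.

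The marker lists as wholes moved as follows. B cell markers (12 measured) had 0 past the threshold, with list means of 5.995 to 7.91 in eTreg, 6.002 to 7.85 in e_iTreg and 6.96 to 7.41 in iTreg. Plasma cell markers (11) had 1 higher in iTreg in each comparison, Prdm1, with list means of 7.21 to 7.61 in eTreg, 7.30 to 7.66 in e_iTreg and 7.63 to 9.21 in iTreg. Monocyte, macrophage and dendritic cell markers (18) had 2 higher against eTreg, Itgam and Cst3, and these with Ly6c2 against e_iTreg, with list means of 6.56 to 7.07 in eTreg, 6.47 to 7.06 in e_iTreg and 6.998 to 8.15 in iTreg. Plasmacytoid dendritic cell markers (11, Bst2 among them) had Bst2 higher and Pacsin1 lower in both comparisons and Siglech lower against e_iTreg, with list means of 6.54 to 7.26 in eTreg, 6.56 to 7.26 in e_iTreg and 6.82 to 6.95 in iTreg. Erythroid and platelet markers (5) had 0 past the threshold. CD8 T and NK cell markers (13) had Gzma, Gzmb and Nkg7 higher in both comparisons, genes that activated Treg can also express. Their list means were 6.43 to 7.19 in eTreg, 6.51 to 7.20 in e_iTreg and 7.28 to 7.79 in iTreg. Every iTreg array thus lay above every other array, while the median difference of these markers from eTreg was 0.18. Whether Treg or other cells carried these transcripts was not tested. Cell cycle genes (15) had 14 higher in both, with a median difference from eTreg of 2.26. No cell cycle gene was highest on iTreg replicate 4, so the array that led the interferon genes did not lead these.

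Beyond the set, the pathway was read in 7 lists of 104 measured genes, some of them lists of further interferon targets and not of upstream genes. Of the 104, 13 were higher and 9 lower in iTreg than in eTreg and 16 higher and 3 lower than in e_iTreg. These are 12.5% and 8.65% of the 104 against eTreg, where 5.36% of all probe sets were higher and 4.63% lower, and 15.4% and 2.88% against e_iTreg, where 6.49% and 4.75% were. The target lists, of 33 type I and 23 interferon gamma-associated genes, held 5 and 5 of the 13 and 6 and 7 of the 16. Among 11 interferon genes 1 was higher in both comparisons, Ifng, the gene of interferon gamma. Ifng stood at 7.54, 7.26, 7.45 and 6.97 in eTreg, at 7.54, 7.52, 7.21 and 7.42 in e_iTreg and at 9.16, 8.83, 8.18 and 8.01 in iTreg. The iTreg arrays lay above all others, and replicate 4 was the lowest of them. Ifng rose by 1.24 ± 0.21 against eTreg (adjusted p = 0.00233) and by 1.12 ± 0.21 against e_iTreg (adjusted p = 0.00399).

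Receptors and kinases (9 genes) had 0 higher and 3 lower against eTreg and 1 lower against e_iTreg. Ifngr2, the signalling chain of the interferon gamma receptor, stood at 10.23, 10.07, 10.98 and 9.86 in eTreg, at 10.49, 10.06, 10.02 and 10.62 in e_iTreg and at 8.97, 9.21, 9.02 and 9.35 in iTreg. Every iTreg array lay below every other array. Ifngr2 fell by 1.14 ± 0.20 on the log2 scale against eTreg (adjusted p = 0.00301) and by 1.16 ± 0.20 against e_iTreg (adjusted p = 0.00296), while Ifngr1, the ligand-binding chain, was at 0.12 ± 0.19 (adjusted p = 0.811). Ifnar2 (-0.36 ± 0.10, adjusted p = 0.0413) and Jak1 (-0.31 ± 0.09, adjusted p = 0.0479) were lower against eTreg. Ifnar1 (-0.30 ± 0.11) and Tyk2 (-0.11 ± 0.13) did not pass.

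The next 3 lists held STAT and IRF factors, negative regulators, and sensors of nucleic acid with their adaptors. Of their 29 genes 5 passed against eTreg (17.2%, where 9.99% of all probe sets did) and 3 against e_iTreg (10.3%, where 11.2% did). Of 7 STAT and IRF factors outside the set, the corepressor Irf2bp2 was lower in both comparisons (-0.54 ± 0.11 against eTreg). Of 9 negative regulators, the SUMO ligase Pias1 was lower against eTreg (-0.32 ± 0.09) and 0 passed against e_iTreg. Of 13 adaptors and sensors, Myd88, the adaptor of Toll-like receptors, was higher in both comparisons (0.38 ± 0.10 against eTreg), and Ikbke, a kinase that activates Irf3, was lower against eTreg (-0.49 ± 0.13). Ifi204, a DNA sensor of the Ifi200 family, was higher in both, from a dim 3.24 ± 0.16 (SD) in eTreg to 5.34 ± 0.69 in iTreg.

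Further genes induced by type I interferon, 33 outside the set, had 5 higher and 3 lower against eTreg and 6 higher and 1 lower against e_iTreg, with a median difference from eTreg of 0.01. Phf11b, a PHD finger gene, rose by 0.96 ± 0.14 against eTreg (adjusted p = 0.0012), Trafd1 by 0.55 ± 0.12, Epsti1 by 0.44 ± 0.11 and Lgals3bp by 0.59 ± 0.15. Oas1g rose by 1.36 ± 0.25 from a dim level of 4.16 ± 0.31 (SD). The genes lower in iTreg than in eTreg were Sp110, a relative of Sp100, by -0.52 ± 0.10, the helicase Ddx60 by -0.44 ± 0.13 and the mitochondrial Ifi27 by -0.39 ± 0.10. Genes of the type I response outside the set thus included both rises and falls.

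Genes tied to interferon gamma, the GTPases and the antigen processing machinery, had 5 of 23 higher and 0 lower against eTreg and 7 higher and 0 lower against e_iTreg, with median differences of 0.22 and 0.29. Iigp1, a GTPase of the same family as Irgm1, was at 8.57, 8.84, 8.76 and 9.46 in eTreg, at 8.38, 8.16, 8.22 and 8.80 in e_iTreg and at 10.01, 9.73, 9.56 and 10.32 in iTreg. Every iTreg array was above every other array. Iigp1 rose by 0.999 ± 0.20 against eTreg (adjusted p = 0.00577) and by 1.52 ± 0.20 against e_iTreg (adjusted p = 0.000859). Gbp7, a guanylate-binding protein, rose by 0.68 ± 0.19 against eTreg and 0.93 ± 0.19 against e_iTreg. All 3 catalytic subunits of the immunoproteasome rose in both comparisons, with Psmb8 at 0.31 ± 0.09, Psmb9 at 0.46 ± 0.11 and Psmb10 at 0.32 ± 0.10 against eTreg. Of this list 11 of 23 genes (47.8%) were highest on iTreg replicate 4.

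Outside these lists, the genes whose values followed the mean of the 38 most closely over the 12 arrays were the interferon-inducible GTPase genes F830016B08Rik (Pearson r = 0.957) and Gm12250 (0.920), with Heatr5a (0.944), Elmo2 (0.929) and Nabp1 (0.916). These correlations describe 12 arrays that share iTreg replicate 4 as the highest point, and no test was made. Within the set Zbp1 (0.965), Rtp4 (0.947) and Parp9 (0.936) followed the mean most closely, while Ifit3 (-0.23), Sp100 (-0.03) and Samd9l (0.09) did not follow it.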

How the data were processed

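Expression was measured on 12 mouse arrays. The deposited log2 values per probe set come, per the submitters' processing notes, from oligo and RMA, a method that corrects background, normalizes between arrays and summarises probes, and versions of both were left out as not given in the sources used here. Such values compress differences near background, and their number of arrays limits precision. Of 41345 table entries 23521 carried exactly 1 symbol (22180 genes), 1814 several and 16010 none, and symbols were updated through the RefSeq gene table of GRCm38.p6 for 23328. No build was stated for the arrays, so RefSeq was used for names and promoters. Of the 38 genes 36 had 1 probe set, Ifi35 had 2 and Sp100 had 4.

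A linear model of 3 groups of 4 arrays, as the series design gives them, was fitted with limma 3.58.1 in R 4.3.3 (lmFit, eBayes, 9 residual and 5.78 prior degrees of freedom) to all 23521 probe sets and checked on simulated data. Tests were two-sided with Benjamini-Hochberg adjustment over 23521 probe sets, and calls were made at adjusted p 0.05 whatever the fold. Pooling of animals is not described, although most arrays carried both Xist and Y-linked transcripts, as a mixture of female and male mice would. The p-values therefore reflect only how these samples spread. The median SE over all probe sets was 0.121.

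The genes of the set and all pathway and marker lists were chosen with earlier results of these data known. Genes named were those of the set past the threshold in any comparison, the 4 with the smallest p in each direction of each comparison, of each pathway list those past the threshold (at most 5) and the main receptors and kinases, Foxp3, Jchain and Siglech. Oas2, Irgm2, C1qb, Ifi27, Ddx60, markers that complete a small count and the other genes of the set with a value were named after their values were seen. Alternatives were other scalings, a filter at log2 6, all entries tested, other probe set rules and error models, array weights, the compared groups alone, a replicate block, covariates, and arrays left out.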

Additional observations from a re-analysis of the deposited data

Results flagged for a closer look

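A sample was singled out when, among the 4 arrays of a group, the highest or lowest lay so far from the nearest other that the gap, as a share of the group's range, exceeded Dixon's 95% critical value. Chance singles out about 1 in 20 groups, or 5% of the 114 groups tested for the 38 genes. Here 10 were singled out, 5 of them in iTreg with replicate 4 the highest each time. All 38 genes were read on the same arrays, so the 114 groups are not independent and 1 unusual array can enter many of them. These 5 iTreg values were 9.71 for Irf7 (next 9.25), 11.04 for Zbp1 (next 10.52), 8.98 for Ifit1 (next 8.21), 9.30 for Xaf1 (next 8.62) and 10.35 for Ifi35 (next 10.02).

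In eTreg, replicate 4 was singled out 4 times. It was the highest for Igtp at 11.13 (next 10.37), Dhx58 at 8.21 (next 8.06) and Ifi213 at 7.97 (next 7.63), and the lowest for Bst2 at 9.39 (next 10.11). In e_iTreg, replicate 3 was the highest for Ifi35 at 9.999 (next 9.73).

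Of 48 groups tested for the means of gene lists 3 were singled out. On iTreg replicate 4 the mean of the 38 genes was 9.12 (next 8.67) and that of the monocyte, macrophage and dendritic cell markers 8.15 (next 7.13). The plasma cell marker mean was lowest on e_iTreg replicate 4, at 7.30 (next 7.64).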

How the results depend on the processing

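Under every alternative and with any 1 array left out, Oas3 and Cmpk2 stayed past the threshold in both iTreg comparisons, and Parp12, Parp9, Irgm1 and Eif2ak2 did against e_iTreg. The count of 7 genes higher against eTreg was 4 with all entries tested, 2 without the 3 arrays low in B cell markers, 2 with the plasma cell marker mean as a covariate and 2 with the monocyte, macrophage and dendritic cell marker mean, a covariate added after seeing the data. The median against eTreg was 0.013 with the plasma cell covariate. The count of 13 against e_iTreg was 7 with either marker covariate, 6 with covariates for Xist and Y-linked genes and 19 after median centring. The causes were not tested. Leaving out 1 array gave 4 to 9 genes higher and 0 to 1 lower against eTreg (4 without replicate 3 of eTreg or replicate 2 or 4 of iTreg), and 10 to 13 higher and 0 to 1 lower against e_iTreg. Medians ran from 0.09 to 0.26, from 0.23 to 0.34 and, for e_iTreg minus eTreg, from -0.17 to -0.09, where 0 genes passed each time. Directions turned for Samd9l (0.016 against e_iTreg after median centring), Sp100 (0.069 against e_iTreg as the mean of its probe sets) and Bst2 in e_iTreg minus eTreg (-0.033 without the arrays low in B cell markers, and -0.039 to 0.25 with 1 array left out). The median of all probe sets in iTreg minus e_iTreg was -0.069 as deposited, -0.022 after quantile normalization and 0.020 after median centring. Same-numbered arrays correlated at -0.152 to 0.238 over 12 pairs, and 3 were over 0.1. Such correlations, of deviations within groups of 4 arrays, cannot settle whether the numbers pair the samples, and no pairing is stated. A replicate block gave 9 and 14 genes higher, and the 1 call lost was Ifih1 in iTreg minus e_iTreg (adjusted p = 0.0527). With 4 arrays a group, genes near the threshold, and those below log2 6, are measured least firmly.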
